A study of Homo sapiens with 3 samples.

Results

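The transcripts of the DNA topoisomerases and of the enzymes that clear their DNA adducts were examined in parental and chemotherapy-resistant MM468 cells. The members were 9 genes taken by symbol from the deposited table of 46427 genes: TOP2A, TOP2B, TOP1, TOP1MT, TOP3A, TOP3B, TDP1, TDP2 and TOPBP1 (gene identifiers 7153, 7155, 7150, 116447, 7156, 8940, 55775, 51567 and 11073 in that order). MM468 (MDA-MB-468) is an established human triple-negative breast cancer cell line, and the study sequenced mRNA from 3 of its lines, with 1 library each. All carried the wild-type genotype label. The parental line was labelled as untreated. The adriamycin-resistant line had survived exposure to adriamycin (doxorubicin) at 10 to 140 nM, and the paclitaxel-resistant line had survived paclitaxel at 2 to 320 nM. Whether drug was present when RNA was taken, and whether a resistant line was 1 clone or a pool, was not given in the sources used here.

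Topoisomerases relieve the twisting of DNA by cutting it, holding the cut end through a tyrosine, and sealing it again. The type II enzymes cut both strands and pass another duplex through, whereas the type I enzymes cut a single strand. Adriamycin traps type II enzymes on DNA, and camptothecins trap TOP1. The trapped protein must then be removed, which is the task of tyrosyl-DNA phosphodiesterases. Paclitaxel acts on microtubules and does not target a topoisomerase.

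The libraries held 32704885 counts for the parental, 47567927 for the adriamycin-resistant and 43242628 for the paclitaxel-resistant line. With 1 library per line no test between lines was possible. Fold changes of read counts after trimmed mean of M-values (TMM) scaling are therefore given with 95% exact binomial intervals, which cover counting error only and not the variation between cultures. Both resistant lines were set against the same parental library, so the comparisons with it are not independent. All 7 breast epithelial markers were detected in every library, with a summed level of 10394 to 12178 CPM (counts scaled to the total of the library), although KRT7 was at least 2-fold lower in the paclitaxel-resistant than in the other lines, and KRT19 than in the adriamycin-resistant line. Of the fibroblast markers, COL1A2 and LUM were at 0 in every library, and COL1A1 carried most of a summed level of 19.3 to 34.4 CPM. Endothelial markers summed to 0.902 to 1.20 CPM. Leukocyte markers summed to 23.8, 2.02 and 1.36 CPM in the parental, adriamycin-resistant and paclitaxel-resistant libraries, most of it CD14 in the first, and CD3E had 0, 2 and 0 counts. The part of these markers in the results was not tested.

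All 9 members were well expressed, with between 695 and 24041 counts in any library. After TMM scaling none differed by 2-fold between any pair of lines. Of the 17950 genes with 10 or more counts in the parental or the adriamycin-resistant library, 10.9% passed 2-fold upwards and 11.4% downwards in adriamycin-resistant cells. The shares were 20.5% upwards and 13.5% downwards in the paclitaxel-resistant line, and 19.4% and 14% in the paclitaxel-resistant against the adriamycin-resistant line. At a limit of 1.5-fold, 3 members (TDP1, TOP1MT and TOP2A) were higher in adriamycin-resistant cells, where 19.6% of all genes were, and 0 were lower, where 19.9% of all genes were. In paclitaxel-resistant cells 1 member, TDP2, was lower, where 23.6% of all genes were, and 0 were higher, where 29.7% of all genes were. TOP2B lay just inside this limit at 1.47-fold. Between the resistant lines TOP2B was higher in paclitaxel-resistant cells, where 29.2% of all genes were, and TDP1 and TOP1MT were lower, where 24.8% of all genes were. Among the genes with 100 or more counts, as all members have, 6.17% were 2-fold higher and 7.95% lower in adriamycin-resistant cells. In paclitaxel-resistant cells these shares were 11.6% and 12.8%, and between the resistant lines 11.3% and 13.3%. The 1.5-fold shares among these genes were 14.8% higher and 16.4% lower in adriamycin-resistant and 20.5% and 24.5% in paclitaxel-resistant cells. These calls depended on the scale. From TPM with a pseudocount of 0.1, TOP2A fell short of 1.5-fold in adriamycin-resistant cells. In paclitaxel-resistant cells TDP2 then fell short of it, and TOP2A, TOP2B and TOPBP1 passed it upwards, where 40.7% of all genes did. The median log2 fold change of the members was -0.10 in adriamycin-resistant and 0.06 in paclitaxel-resistant cells, beside 0.02 and 0.07 for all genes compared.

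**Figure D1:**
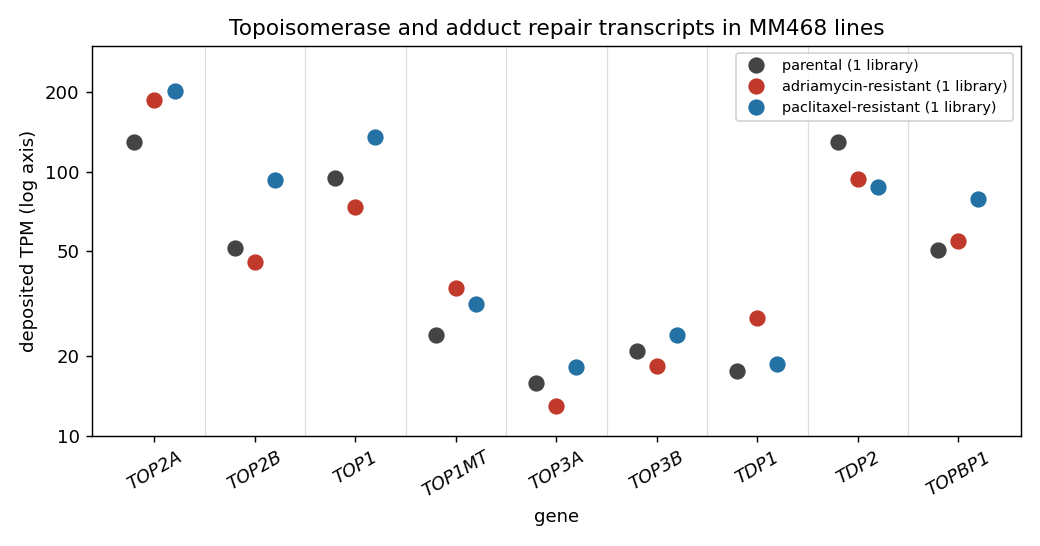
Deposited TPM (transcript level per length, log axis) of the 9 members in the parental (grey), adriamycin-resistant (red) and paclitaxel-resistant (blue) library, 1 point per library with no error bar. TOP2A was the highest member in both resistant lines at 188 and 202 TPM, and TOP3A the lowest in all lines at 12.9 to 18.3 TPM.

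The type II enzyme TOP2A, which untangles sister chromatids at mitosis and is most abundant in dividing cells, had 10803 counts in parental, 24041 in adriamycin-resistant and 20919 in paclitaxel-resistant cells. Its level per length was 129, 188 and 202 TPM in the same order. The transcript of this adriamycin target was thus higher, not lower, in the adriamycin-resistant library, by 1.51-fold (1.48 to 1.55). In paclitaxel-resistant cells it was 1.25-fold higher than in parental cells (1.22 to 1.28). The order of the resistant lines depended on the scale: by TMM the paclitaxel-resistant level was 0.807 of the adriamycin-resistant level, whereas by TPM with a pseudocount of 0.1 it was 1.07-fold higher.

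TOP2B is the type II enzyme that non-dividing cells also use, at promoters and at the anchors of chromatin loops. It had 4244 counts in parental, 5815 in adriamycin-resistant and 9651 in paclitaxel-resistant cells, or 51.3, 45.4 and 92.9 TPM. The paclitaxel-resistant library stood above the other libraries, at 1.47-fold the parental level (1.42 to 1.52) and 1.54-fold the adriamycin-resistant level (1.49 to 1.59). The latter became 2.05-fold from TPM with a pseudocount of 0.1. In adriamycin-resistant cells TOP2B was at 0.931 of the parental level (0.895 to 0.969), so the type II paralogs went opposite ways there.

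The balance between the type II paralogs within a library does not depend on the scaling between libraries. TOP2A made up 71.6% of the summed TOP2A and TOP2B TPM in parental cells, 80.6% in adriamycin-resistant cells and 68.5% in paclitaxel-resistant cells. As a share of counts, with 95% exact Clopper-Pearson intervals, this was 71.8% (71.1 to 72.5), 80.5% (80.1 to 81.0) and 68.4% (67.9 to 69.0). The intervals of the 3 libraries did not overlap, but they cover counting error only and not the variation between cultures. How often other gene pairs have intervals that do not overlap was not counted. By these shares the adriamycin-resistant library leaned further towards TOP2A than the parental library, and the paclitaxel-resistant library slightly towards TOP2B. Whether the lines differ in this balance was not tested. The type II enzymes made up 53.7% of the TPM of all 6 topoisomerases in parental, 62.3% in adriamycin-resistant and 58.5% in paclitaxel-resistant cells.

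The sequences before the start sites of this pair are shown because the paralogs were at different levels and had different fold changes in each resistant line. TOP2A lies at chr17:40388525-40417896 and TOP2B at chr3:25597905-25664907, both on the minus strand of GRCh38.p14 in RefSeq. A window of 250 bases before each start was searched on both strands for 3 motifs. CCAAT is the box bound by NF-Y. TTTGAA is the core of cell cycle homology regions in genes that peak late in the cell cycle. GGGCGG is the GC box bound by Sp1. No match overlapped another in these windows, which are those of the RefSeq promoter table. For TOP2A, the 54 bases next to the start are covered by an exon in GENCODE and are left out, giving chr17:40417951-40418146. The TOP2B window, chr3:25664908-25665157, is given whole. An exon of the microRNA gene MIR4442 lies in it, and no exon of a protein-coding gene does. A further start inside the TOP2B gene has a window with a GC box and neither CCAAT nor TTTGAA, which is not shown. Capitals mark each of these motifs or its reverse complement.
TOP2A: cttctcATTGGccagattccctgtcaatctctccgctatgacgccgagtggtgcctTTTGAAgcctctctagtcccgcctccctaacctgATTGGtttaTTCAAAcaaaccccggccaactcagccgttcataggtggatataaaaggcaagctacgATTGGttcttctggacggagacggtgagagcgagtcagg
TOP2B: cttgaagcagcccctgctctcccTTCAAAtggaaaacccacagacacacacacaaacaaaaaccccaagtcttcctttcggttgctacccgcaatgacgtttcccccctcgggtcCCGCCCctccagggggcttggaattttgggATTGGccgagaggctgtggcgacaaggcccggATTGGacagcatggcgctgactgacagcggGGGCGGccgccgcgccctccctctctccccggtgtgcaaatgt

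The TOP2A window held 4 CCAAT boxes, 244, 160, 93 and 53 bases before the start, the last of them in the bases left out. Of 22199 windows of the same length before the starts of 15843 protein-coding genes, 32.7% held a CCAAT box and 1.03% held 4 or more. The TOP2A window also held 2 TTTGAA motifs, 194 and 151 bases before the start, and a GC box at 36 bases, which is also in the bases left out. The TOP2B window held 2 CCAAT boxes, at 105 and 73 bases, 1 TTTGAA motif at 227 bases and GC boxes at 135 and 43 bases. TTTGAA was in 11.0% of all windows and GGGCGG in 53.7%. A match gives only the letters and says nothing of whether a factor was bound in these cells.

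The pattern of TOP2A was set beside lists of cell cycle genes, since its transcript is known to peak in G2 and mitosis. In adriamycin-resistant cells the 18 genes of the G2/M list had a median log2 fold change of -0.02, with 9 above 0 and 9 below. TOP2A, at 0.60, lay above 17 of them. CCNB2, a mitotic cyclin, was at 0.64, the spindle kinase AURKA at 0.50 and the cyclin CCNB1 at 0.49, whereas the spindle factor TPX2 was lowest at -0.57. These were named after their values were seen, except CCNB1. MKI67, the proliferation antigen, had 15127 counts in parental and 18672 in adriamycin-resistant cells, at 0.839 of the parental level. The 15 S-phase genes had a median of -0.38, and TOP2A was above 14 of them. The exception was CDC6, a replication licensing factor at 0.63, which is also a near neighbour of TOP2A on its chromosome. In the same list the replicative helicase subunit MCM3 was 2.18-fold lower, with 8009 and 5412 counts.

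In paclitaxel-resistant cells the G2/M list had a median of -0.11 and TOP2A, at 0.32, lay above 14 of 18 genes. MKI67 was at 0.582 of the parental level with 13615 counts, and CDK1, the mitotic kinase, was 2.58-fold lower with 5073 counts in parental and 3042 in paclitaxel-resistant cells. Of the S-phase genes 6 of 15 were at least 2-fold lower (MCM2, MCM3, MCM5, MCM6, PCNA and GINS2), 0 were 2-fold higher, and TOP2A lay above all 15. The median of this list was -0.41. Of all genes 13.5% were 2-fold lower and 20.5% higher in paclitaxel-resistant cells. Against adriamycin-resistant cells, paclitaxel-resistant cells were at least 2-fold lower in 3 G2/M genes, namely CDK1, CCNB1 (10650 and 4964 counts) and the checkpoint kinase BUB1 (7746 and 4110 counts), and in the S-phase genes MCM2, MCM6 and GINS2. Of all genes 14% were 2-fold lower in that comparison. The part of the share of cycling cells in the TOP2A values was not tested, and in bulk RNA fewer cells in a phase and less RNA per cell cannot be told apart.

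**Figure D2:**
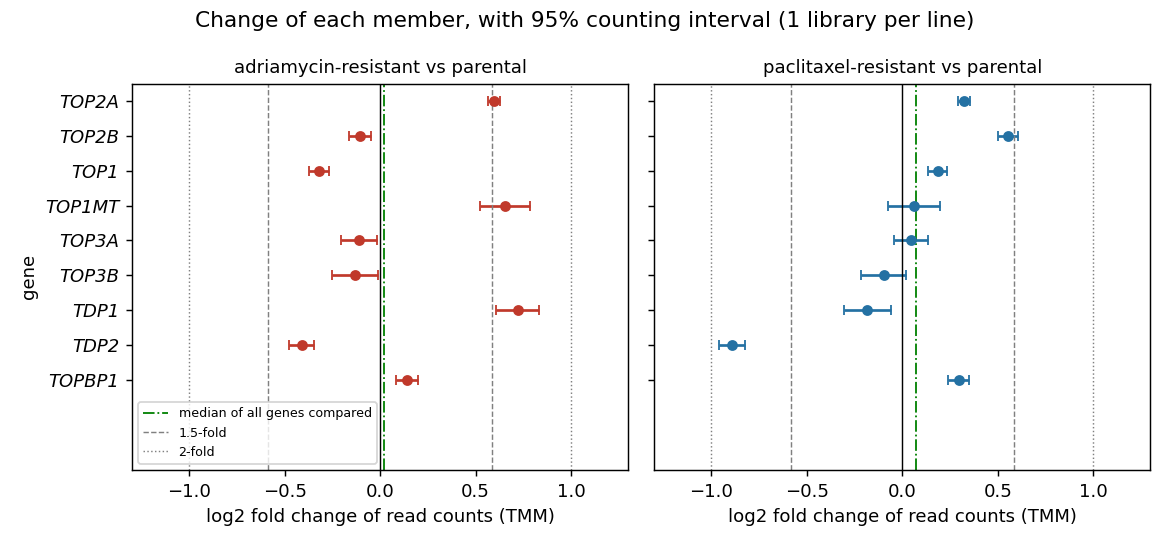
Log2 fold change of TMM-scaled read counts of each member in adriamycin-resistant (left) and paclitaxel-resistant (right) cells against the same parental library, with bars for the 95% counting interval and lines for 1.5-fold, 2-fold and the median of all genes compared. TDP1, TOP1MT and TOP2A passed 1.5-fold on the left (log2 0.72, 0.65 and 0.60), and TDP2 alone passed it on the right (-0.89) on this scale. From TPM with a pseudocount of 0.1, TDP2 did not pass it there, and TOP2A, TOP2B and TOPBP1 did.

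TOP1 relaxes DNA ahead of and behind RNA polymerase and is the nuclear type IB enzyme. It lies at chr20:41028822-41124487 on the plus strand. Its counts were 5238 in parental, 6174 in adriamycin-resistant and 9214 in paclitaxel-resistant cells, and its TPM 94.9, 73.5 and 135. After scaling it was at 0.801 of the parental level in adriamycin-resistant cells (0.772 to 0.831) and 1.14-fold higher in paclitaxel-resistant cells (1.10 to 1.18). The resistant lines thus lay on either side of the parental line.

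TOP1MT, a gene of chromosome 8, encodes the type IB enzyme of mitochondrial DNA. It had the fewest counts of the 9 members in the parental library, 695, with 1609 in adriamycin-resistant and 1122 in paclitaxel-resistant cells. Its levels were 24.0, 36.4 and 31.4 TPM. After TMM scaling it was 1.57-fold higher in adriamycin-resistant cells (1.44 to 1.72), whereas its interval in paclitaxel-resistant cells (0.948 to 1.15, around 1.04) held no change. Over 10 scales and filters the paclitaxel-resistant value ran from 1.03-fold to 1.31-fold, above this interval on some of them. TOP1 accordingly made up 79.8% of the summed TPM of TOP1 and TOP1MT in parental, 66.9% in adriamycin-resistant and 81.2% in paclitaxel-resistant cells.

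Genes that maintain mitochondrial DNA were compared as partners of TOP1MT. In adriamycin-resistant cells 8 of 8 had a log2 fold change above 0, with a median of 0.28 beside 0.02 for all genes, and 1 was at least 2-fold higher. This was POLG2, the accessory subunit of the mitochondrial DNA polymerase, with 165 and 586 counts (2.41-fold). In paclitaxel-resistant cells 3 of 8 were above 0, with a median of -0.50. TFAM, which packages mitochondrial DNA, was 2.09-fold lower there, with 2751 counts in parental and 2040 in paclitaxel-resistant cells. Between the resistant lines the helicase TWNK was 3.10-fold lower, TFAM 2.34-fold lower and the single-strand binding protein SSBP1 2.04-fold lower in paclitaxel-resistant cells. TOP1MT was itself 1.55-fold lower in that comparison by TMM. Over 10 scales and filters it was at 0.642 to 0.866 of the adriamycin-resistant level, so its size depended on the scale.

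TOP3A and TOP3B are type IA enzymes, which pass one strand through another. TOP3A resolves joined DNA molecules with the BLM helicase and also acts in mitochondria, and TOP3B works with TDRD3 and acts on RNA as well. TOP3A (chr17:18271428-18314994, minus strand) had 1630, 2224 and 2605 counts in parental, adriamycin-resistant and paclitaxel-resistant cells, and TOP3B (chr22:21957025-21982787, minus strand) had 969, 1302 and 1401. Their levels were 15.9, 12.9 and 18.3 TPM for TOP3A, and 20.8, 18.3 and 24.0 TPM for TOP3B. These were the steadiest members: TOP3A was at 0.927 of the parental level in adriamycin-resistant cells (0.869 to 0.989) and TOP3B at 0.913 (0.839 to 0.993). In paclitaxel-resistant cells both intervals held 1, at 1.03 for TOP3A (0.970 to 1.10) and 0.934 for TOP3B (0.860 to 1.02). For TOP3B that direction turned under 4 of the 10 scales and filters. TOP3A made up 43.3%, 41.5% and 43.2% of their summed TPM. The ratio of counts to FPKM, which follows the transcript length used, was 1.86 times that of TOP1 in parental and 2.04 and 2.10 times in the resistant lines for TOP3A, so its TPM was computed with another length in each library.

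Of the partners of these enzymes, 0 of 5 differed by 2-fold in any comparison. FMR1, which binds the TOP3B partner TDRD3, had 5710, 4734 and 6965 counts and was 1.78-fold lower in adriamycin-resistant and 1.27-fold lower in paclitaxel-resistant cells. RMI2, a scaffold subunit with BLM and TOP3A, had 412, 391 and 604 counts and was 1.55-fold lower in adriamycin-resistant cells. RMI1 had 920, 1053 and 1496 counts, TDRD3 570, 748 and 1107, and BLM 635, 1083 and 1271. The median log2 fold change of the list was -0.36 in adriamycin-resistant and 0.07 in paclitaxel-resistant cells.

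TDP1 cuts the bond between DNA and the tyrosine of a trapped TOP1, and TDP2 does the same for TOP2 adducts. TDP1 (chr14:89954968-90044764, plus strand) had 928 counts in parental, 2251 in adriamycin-resistant and 1264 in paclitaxel-resistant cells, or 17.5, 27.8 and 18.6 TPM. The adriamycin-resistant library stood apart, at 1.65-fold the parental level (1.53 to 1.78), and its range over 10 scales and filters was 1.56 to 1.68. In paclitaxel-resistant cells TDP1 was at 0.880 of the parental level (0.808 to 0.959), a direction that turned under 4 of the 10. It was 1.92-fold lower there than in adriamycin-resistant cells by TMM. Over the 10 it was at 0.517 to 0.680 of the adriamycin-resistant level.

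TDP2 (chr6:24649979-24666899, minus strand), the enzyme matched to TOP2 adducts, had 3698 counts in parental, 4097 in adriamycin-resistant and 3085 in paclitaxel-resistant cells. Its level was 129, 94.1 and 87.5 TPM, and the parental library was highest. It was 1.33-fold lower in adriamycin-resistant (1.27 to 1.39) and 1.85-fold lower in paclitaxel-resistant cells (1.77 to 1.95). From TPM with a pseudocount of 0.1 the paclitaxel-resistant level was 0.677 of the parental level, so its size depended on the scale and its direction did not. TDP1 made up 11.9% of the summed TPM of TDP1 and TDP2 in parental, 22.8% in adriamycin-resistant and 17.5% in paclitaxel-resistant cells. By counts the shares were 20.1% (18.9 to 21.2), 35.5% (34.3 to 36.7) and 29.1% (27.7 to 30.4).

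The other genes of adduct removal were described from a list of 17, which holds proteases, SUMO and ubiquitin ligases, the VCP unfoldase and nucleases. In adriamycin-resistant cells 1 was at least 2-fold higher and 0 lower, with a median log2 fold change of 0.10. The higher gene was EME1, the partner of the MUS81 nuclease, with 184 and 593 counts (2.19-fold). In paclitaxel-resistant cells EME1 was 2.03-fold higher with 578 counts, and VCP was 3.92-fold lower with 36218 counts in parental and 14297 in paclitaxel-resistant cells. The median there was 0.24. SPRTN, the protease that digests proteins bound to DNA, had 799, 1449 and 1016 counts, at 1.23-fold and 0.822 of the parental level. ZNF451, the SUMO ligase that helps TDP2 act on a TOP2 adduct, had 1846, 1728 and 2903 counts and was 1.57-fold lower in adriamycin-resistant cells. It was the 1 gene of this list at least 1.5-fold lower there, and 3 were at least 1.5-fold higher. Of all genes 19.9% were lower and 19.6% higher by this limit.

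Once the protein is gone, the break is trimmed and sealed by a list of 13 genes of end processing and ligation. In adriamycin-resistant cells LIG3, the ligase that seals single-strand breaks with XRCC1, was 2.40-fold higher with 1323 and 4668 counts. APLF, an end-joining accessory factor, was at 0.455 of the parental level with 115 and 77 counts (0.336 to 0.612). In paclitaxel-resistant cells NHEJ1, an end-joining factor, was 2.03-fold lower with 996 and 761 counts, and 0 of 13 were 2-fold higher. XRCC4, the partner of LIG4, was 2.33-fold lower in paclitaxel-resistant than in adriamycin-resistant cells, with 189 and 409 counts. The medians of this list were 0.03 in adriamycin-resistant and -0.14 in paclitaxel-resistant cells.

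TOPBP1 is not a topoisomerase: it binds TOP2B, from which it has its name, and activates the ATR kinase at stalled replication forks. Located at chr3:133600238-133661941 on the minus strand, it had 4083, 6631 and 7757 counts and 50.4, 54.7 and 78.8 TPM in parental, adriamycin-resistant and paclitaxel-resistant cells. It was 1.10-fold higher in adriamycin-resistant (1.06 to 1.15) and 1.23-fold higher in paclitaxel-resistant cells (1.18 to 1.28). Of its 12 partners in ATR signalling, 0 differed by 2-fold in adriamycin-resistant cells, with a median of -0.01. In paclitaxel-resistant cells 1 was at least 2-fold lower and 0 were higher, with a median of 0.14. This was RAD1, a subunit of the clamp that brings TOPBP1 to ATR, which was 2.42-fold lower with 2429 counts in parental and 1555 in paclitaxel-resistant cells.

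Cohesin, condensin and CTCF, which share loop anchors and mitotic chromosomes with the type II enzymes, were given by 14 genes. In adriamycin-resistant cells 0 differed by 2-fold, with a median of 0.07. In paclitaxel-resistant cells the condensin II subunit NCAPH2 was 2.38-fold lower, with 3516 counts in parental and 2287 in paclitaxel-resistant cells, 0 were 2-fold higher, and the median was -0.11.

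**Figure D3:**
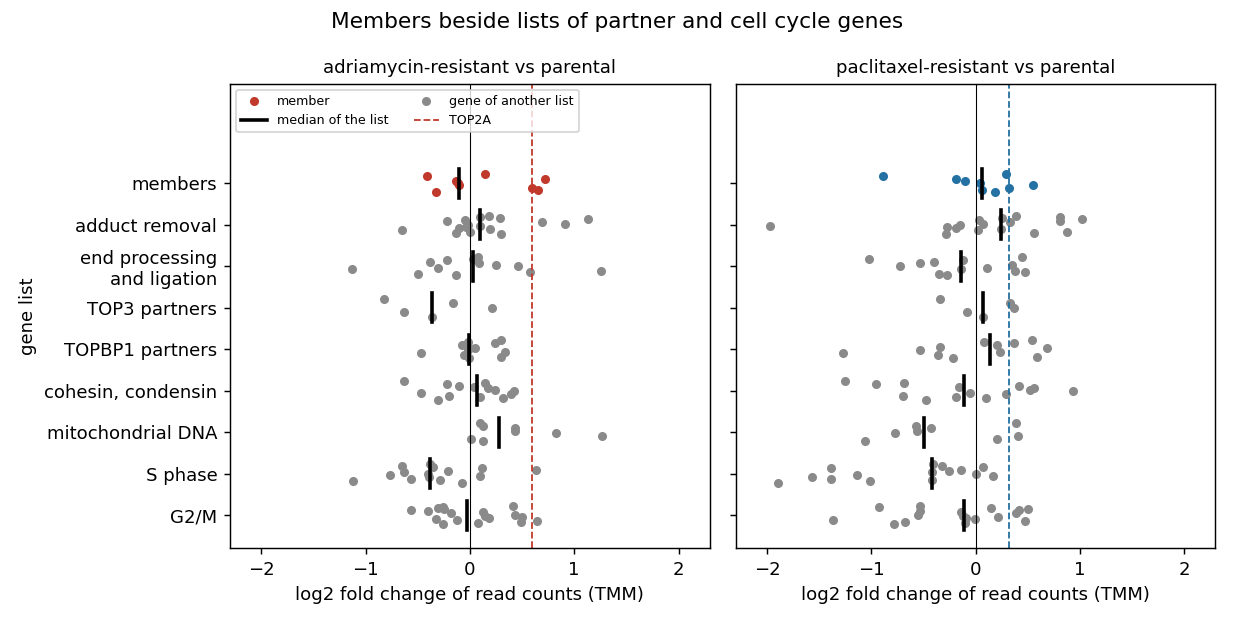
Log2 fold change of each member and of each gene of 8 partner and cell cycle lists in adriamycin-resistant (left) and paclitaxel-resistant (right) cells against parental cells, with a bar at each list's median and a dashed line at TOP2A. The S-phase medians lay at -0.38 and -0.41, and the mitochondrial DNA medians at 0.28 and -0.50.

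The members that differed most from the parental line were compared with the protein-coding genes next to them on the chromosome, 5 on each side in RefSeq order. In adriamycin-resistant cells the 9 neighbours of TDP1 that could be compared were all above 0, with a median log2 fold change of 0.84 beside 0.72 for TDP1. Of all 12844 windows of this width, 2.21% had a median at or above this. Such shares are descriptions: the windows overlap and centre on any protein-coding gene compared, whereas these members were picked by their own change. EML5 had 134 counts in parental and 1276 in adriamycin-resistant cells, TTC8 had 324 and 1004, and EFCAB11 had 165 and 526, so each was at least 2-fold higher. In paclitaxel-resistant cells the median of the same neighbours was 0.10.

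TOP2B showed this in the other line. In paclitaxel-resistant cells its neighbours had a median of 0.99 beside 0.56 for TOP2B, and 8 of 9 were above 0. At or above this median were 3.4% of 13399 windows. THRB had 791 counts in parental and 4353 in paclitaxel-resistant cells, NGLY1 had 745 and 4384, and SLC4A7 had 1007 and 3478. The median was -0.07 in adriamycin-resistant cells. RARB, which overlaps the TOP2B gene in RefSeq, had 46, 28 and 36 counts, far under those of TOP2B. The strand setting of the counting was not given, so reads from the overlap cannot be told apart.

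The neighbours of TDP2 were lower in paclitaxel-resistant cells, with a median of -0.92 beside -0.89 for TDP2 and 9 of 9 below 0. Of all windows 7.08% had a median at or below this. DCDC2 had 528 counts in parental, 335 in adriamycin-resistant and 335 in paclitaxel-resistant cells, and RIPOR2 had 137, 40 and 8. After scaling both were at least 2-fold lower in each resistant line. In adriamycin-resistant cells the median was -0.26, with 8 of 9 below 0. For TOP2A the neighbours had a median of 0.48 in adriamycin-resistant cells, with 6 of 9 above 0, and 9.52% of windows lay at or above it. In paclitaxel-resistant cells, where TOP2A was 1.25-fold higher, its neighbours had a median of -0.14, and TNS4 had 612 counts in parental and 241 in paclitaxel-resistant cells.

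Single neighbours of other members also passed 2-fold against parental cells with at least 100 counts. Beside TOP3B these were YPEL1 in adriamycin-resistant cells, and SDF2L1 and PRAME in paclitaxel-resistant cells. Beside TOPBP1 they were TF and SLCO2A1 in both lines, lower in each, and TMEM108 and RAB6B in paclitaxel-resistant cells.

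The neighbours of TOP1MT had a median of 0.07 in adriamycin-resistant cells, where it was at 0.65. At or above this median were 42.7% of windows. TOP3B also differed from its neighbours. Their medians were -0.47 in adriamycin-resistant and -0.72 in paclitaxel-resistant cells, with 6 of 7 below 0 in each, beside -0.13 and -0.10 for TOP3B. At or below these medians were 12.5% and 12.6% of windows. For TOPBP1, 12.8% of windows lay at or above its neighbour median in adriamycin-resistant cells and 36.5% in paclitaxel-resistant cells. In the same order, neighbour medians were 0.38 and 0.12 for TOPBP1 (itself 0.14 and 0.30), -0.12 and -0.12 for TOP3A (-0.11 and 0.05), and -0.05 and 0.01 for TOP1 (-0.32 and 0.18). Wider windows, chosen after the values were seen, gave medians of 0.73 and 0.70 for TDP1 in adriamycin-resistant cells with 10 and 25 genes on each side, and 38 of 41 genes above 0 in the wider one. They gave 1.00 and 0.87 for TOP2B in paclitaxel-resistant cells, with 34 of 40 above 0, and -0.92 and -0.64 for TDP2, with 26 of 32 below 0. For TOP2A in adriamycin-resistant cells they gave 0.52 and 0.57, with 23 of 30 above 0. DNA copy number was not measured here, and its part in these values was not tested.

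**Figure D4:**
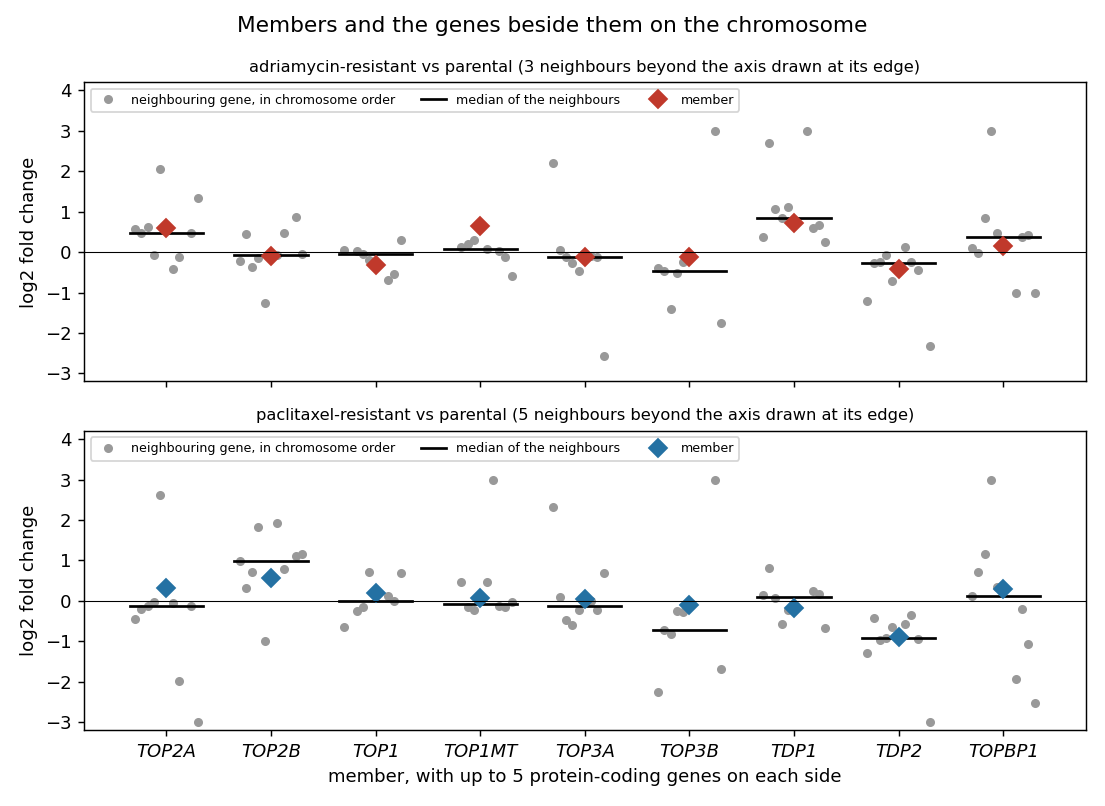
Log2 fold change of each member (diamond) and of up to 5 protein-coding genes on each side in chromosome order (grey points), with a bar at the neighbours' median, in adriamycin-resistant (top) and paclitaxel-resistant (bottom) cells against parental cells. The neighbours' medians lay at 0.84 for TDP1 on top, and at 0.99 for TOP2B and -0.92 for TDP2 below.

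Genes tied to the response to topoisomerase poisons stood beside these values. SLFN11, which blocks stalled forks in cells exposed to such poisons, had 1747, 3221 and 3953 counts in parental, adriamycin-resistant and paclitaxel-resistant cells, at 1.25-fold and 1.46-fold the parental level. The efflux pump ABCB1, which exports both drugs, had 10, 8374 and 8171 counts. ABCG2, another pump, had 0, 162 and 28 counts, at least 36.7-fold and 6.03-fold higher when the parental count of 0 is set at 3. ABCC1 had 1406, 2399 and 4620 counts and was 2.12-fold higher in paclitaxel-resistant cells. The fold changes of ABCB1 and ABCG2 against parental cells were larger than that of any of the 9 members.

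Of the relatives of the members, the meiotic enzyme SPO11 was at 0 in all 3 libraries, which allows up to 0.0631 to 0.0917 CPM at a limit of 3 counts. Its partner TOP6BL had 890, 893 and 1254 counts, at 0.682 and 0.910 of the parental level. The processed copies of TOP1 held few reads, with 10, 10 and 32 counts for TOP1P1 and 0, 1 and 1 for TOP1P2, beside at least 5238 for TOP1. Reads that were assigned to TOP1 but came from such copies cannot be told apart.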

How the data were processed

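mRNA libraries (TruSeq Stranded) of 3 lines were sequenced, 1 per line, and groups were taken from the labels. The authors deposited 1 table with raw read counts per gene, FPKM and TPM. The submitters' processing notes name Trimmomatic 0.39, HISAT2 2.2.1, StringTie 2.2.1 and GRCh38; the annotation release and strand setting of the counting are not given in the sources used here. The labels and the study's methods name different RNA kits.

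From the deposited counts, log2 fold changes were computed with edgeR 4.0.16 in R 4.3.3 (TMM on the 2 libraries compared, prior count 0.125, at least 10 counts in 1 of them), with exact binomial intervals. No test was made. The deposited FPKM and TPM gave levels per length and alternatives with a pseudocount. Other alternatives used DESeq2 1.42.0 size factors, library size, other filters and 1.5-fold. The script was tested on simulated data.

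The members and gene lists were chosen with earlier results of these data known. Named are all members, the list genes at least 2-fold changed with 100 or more counts, and 10 fixed genes; the last are RMI1, RMI2, BLM, TDRD3, FMR1, SPRTN, ZNF451, MKI67, SLFN11 and ABCB1. Neighbours were named when 2-fold changed against parental cells with 100 or more counts. RefSeq promoter windows were found for 8 members; sequences are credited to RefSeq, GRCh38.p14.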

Additional observations from a re-analysis of the deposited data

Results flagged for a closer look

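TOP1, TOP2B and TDP1 lay on opposite sides of the parental level in the resistant lines, with counting intervals that left out 1 in both. The share of all genes that met this rule was not counted, so the rule does not set these members apart from other genes. On the log2 scale, paclitaxel-resistant over adriamycin-resistant cells, the difference was 0.47 for TOP1, 0.62 for TOP2B and -0.94 for TDP1. With 1 library per line the difference was not tested, and the paclitaxel-resistant direction of TDP1 turned when libraries were scaled by size, FPKM or TPM.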

How the results depend on the processing

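With 1 library per line, spread between cultures is unknown, and the intervals cover counting error only. No paired analysis was possible because each line has 1 library. The direction against parental cells held in 10 scales and filters, the main one included, for 9 of 9 members in adriamycin-resistant cells. In paclitaxel-resistant cells it held for 7 of 9 (all but TDP1 and TOP3B), and between the resistant lines for 7 of 9 (all but TOP2A and TOP3B). Several of these settings shift all genes by nearly the same amount, so they can turn only small changes. The share of all genes that kept their direction was not counted. Of 243 alternative member values, 156 stayed within the counting interval and 87 left it.

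At 1.5-fold instead of 2-fold, 3 members were higher in adriamycin-resistant cells (19.6% of all genes) and 1 was lower in paclitaxel-resistant cells (23.6%). Between the resistant lines 1 was higher (29.2% of all genes) and 2 were lower (24.8%) in paclitaxel-resistant cells. These 1.5-fold counts were repeated on every scale and filter, an alternative chosen after seeing the data. From TPM with a pseudocount of 1, 1 member was higher and 0 lower in adriamycin-resistant cells, where 11.2% and 14.9% of all genes were. In paclitaxel-resistant cells 3 were higher and 0 lower, where 30.4% and 11.8% of all genes were, so TDP2 was no longer called. With a pseudocount of 0.1 the counts were 2 and 0 in adriamycin-resistant cells (17.8% and 20.8% of all genes). They were 3 and 0 in paclitaxel-resistant cells (40.7% and 14.9% of all genes). TOP2B was also called higher in paclitaxel-resistant cells by library size, from FPKM, and with no count minimum or one of 100. The shares of all genes higher there were 37.4%, 19.8%, 36.2% and 22.4% in that order. Between the resistant lines 2 were higher and 0 lower from TPM. Of all genes 32.3% and 10.2% were with a pseudocount of 1, and 43.1% and 13.7% with 0.1. From TPM with a pseudocount of 1 or 0.1, 1 member (TOP2B) was 2-fold higher between the resistant lines. Of 19327 genes, 2850 and 5192 were 2-fold higher on these scales. The median member log2 fold change in adriamycin-resistant cells moved to -0.17 and -0.18 from TPM with pseudocounts of 1 and 0.1. In paclitaxel-resistant cells it moved to 0.29 by library size, 0.28 from FPKM, and 0.37 and 0.39 from TPM. Between the resistant lines these were 0.24, 0.23, 0.38 and 0.39. Library size alone also raised the median of all genes by 0.23 and 0.25 in these comparisons, and changed the paclitaxel-resistant split of all genes from 3909 higher and 2585 lower to 4738 and 1919. Without a count minimum 4337 genes were 2-fold higher in adriamycin-resistant cells, instead of 1963, and 7035 in paclitaxel-resistant cells. From FPKM with a pseudocount of 1 these were 460 and 1374. The cause of these shifts was not tested.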
